A study of Mus musculus with 30 samples.

Results

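Matrix metalloproteinases are the secreted and membrane-bound proteases that cut the proteins of the extracellular matrix, and the RNA of 10 of them was followed here in tendon fibroblasts whose contractility was inhibited. The genes were Mmp2, Mmp3, Mmp9, Mmp10, Mmp11, Mmp13, Mmp14, Mmp16, Mmp19 and Mmp23, taken by name from the 35973 genes of the blebbistatin table and the 35972 genes of the Y27632 table. All 10 were in both tables, and all 10 passed the filter on low values, which asked for a mean of at least 10 normalised counts across both groups of the table. A further 13 genes of the family had rows in the tables and are described as a separate list.

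All samples were primary fibroblasts of the mouse tail tendon with the genotype given as wildtype, in medium with 0.1% fetal bovine serum. Poly(A) RNA was sequenced from 3 libraries each of cells given the solvent DMSO, cells given 10 µM of the myosin II inhibitor blebbistatin, and cells given 30 µM of Y27632, a kinase inhibitor that also lowers contractility. Accessible chromatin was profiled by ATAC-seq in 3 libraries of each of the same treatments. A last set of 12 genomic DNA libraries, 3 per group, had neither drug, blebbistatin at 10 µM alone, doxycycline at 10 ng/mL alone, or both. The series addresses how mechanical cues and the co-regulators Yap and Taz act on chromatin and transcription. The labels do not state what doxycycline induced, how long the cells were treated, or whether replicates came from separate animals or cultures, so p-values measure only the spread between these samples, which may be technical.

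The RNA libraries held 23375386 to 37061737 reads in genes. All 10 markers of tendon fibroblasts had mean normalised counts of at least 10 in every group. Their sum was 553837 to 595076 in DMSO and 493284 to 541498 with blebbistatin. In the Y27632 table it was 575546 to 618643 in DMSO and 573111 to 610778 with Y27632. With blebbistatin 4 of the 10 rose and 5 fell (limma adjusted p under 0.05), beside 26.1% and 26.9% of all genes tested. Markers of other cell types were present too, with group means of at least 10 for 8 of 8 macrophage, 3 of 5 endothelial, 4 of 5 pericyte and smooth muscle and 4 of 5 chondrocyte markers. Of 5 osteoclast markers 1 had such a mean in DMSO and with blebbistatin, and 2 with Y27632. The summed chondrocyte markers had 393 to 441 normalised counts in DMSO and 527 to 591 with blebbistatin. In the Y27632 table they had 408 to 458 in DMSO and 531 to 644 with Y27632. These sums largely follow 1 gene, Comp, which had 307 ± 14.6 normalised counts in DMSO and 453 ± 44.6 with Y27632 (SD, n = 3). Of 4 chondrocyte markers tested, only Comp had a limma adjusted p under 0.05 with each drug, at log2 changes of 0.60 and 0.56. The other 3 did not pass, so the sums do not stand for the list. The endothelial gene Tek had 3110.4 ± 25.4 normalised counts in DMSO and 2014 ± 117 with blebbistatin, and the pericyte gene Cspg4 had 2004 ± 128 and 2354 ± 147 (SD, n = 3). Neither stands for its list. Of 3 endothelial markers tested with blebbistatin only Tek had a limma adjusted p under 0.05. Cdh5 and Kdr did not, with log2 changes of 0.30 and 0.60. Of 4 pericyte and smooth muscle markers tested, Cspg4 rose, Rgs5 fell (log2 change -0.52, limma adjusted p 0.0183) and 2 did not pass. Among neutrophil markers Elane and S100a9 were listed at 0 in every library and S100a8 had group means of 8.82 to 11.4. Among keratinocyte markers Krt1 was listed at 0 in every library and Krt10 had group means of 61.6 to 75.0. The 2 tables were normalised separately, so DMSO values differ slightly between them, and each treatment was set against the DMSO values of its own table.

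Metalloproteinases are zinc-dependent enzymes that are made as inactive precursors and are activated by removal of a propeptide. Collagenases make the first cut in fibrillar collagen, gelatinases digest the denatured chains and basement membrane collagen, and stromelysins cut proteoglycans and glycoproteins and activate other precursors. The Timp proteins inhibit the active enzymes. In tendon, whose dry mass is mostly type I collagen, these enzymes take part in turnover, repair and the matrix loss that follows reduced loading.

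RNA of most of these metalloproteinases was higher under both inhibitors, and that of 7 was higher with blebbistatin than with Y27632. With blebbistatin 8 of the 10 genes rose and 0 fell, in a comparison that called 53.0% of the 14882 genes tested by limma (Benjamini-Hochberg adjusted p under 0.05), 26.1% higher and 26.9% lower. By at least 1 on the log2 scale, 5 of the 10 rose, as did 3.64% of all genes tested. The median log2 change of the 10 genes was 1.05, beside 0.0021 over all genes tested. With Y27632 7 rose and 2 fell, where 35.9% of 14833 genes were called, 18.1% higher and 17.8% lower. Here 2 of the 10 rose by at least 1, as did 1.14% of all genes. Their median log2 change with Y27632 was 0.25, beside 0.0040 over all genes tested. The genes were chosen with earlier results of these data known, so the counts describe these genes and are no test of the family.

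**Figure D1:**
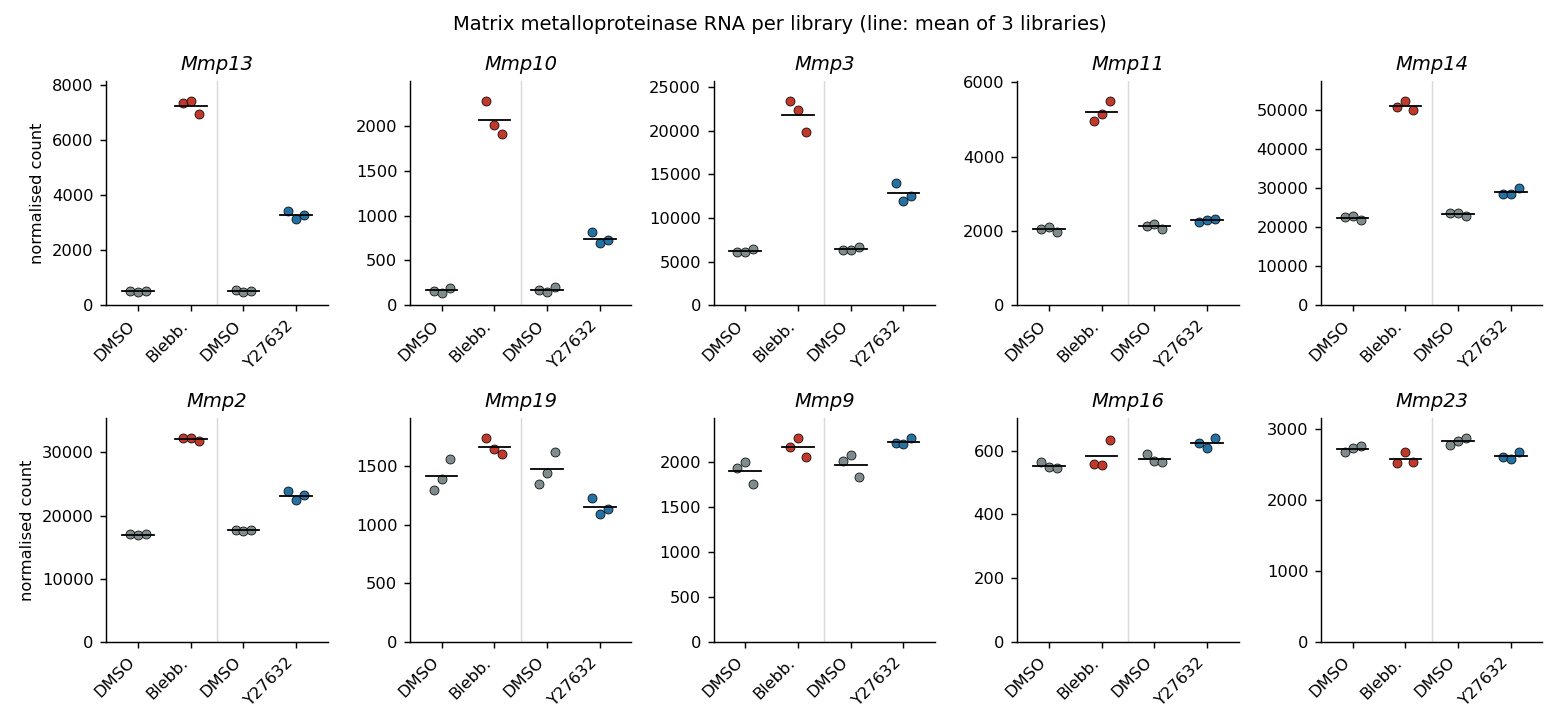
Normalised count of each metalloproteinase in each RNA library. The vertical axes start at 0, each point is 1 library, the horizontal line is the mean of 3, and the left and right pairs of each panel come from the blebbistatin and the Y27632 table. For Mmp13 the blebbistatin libraries sit between 6949 and 7388 and the Y27632 libraries between 3130.3 and 3422, above every DMSO library, whereas the points of Mmp16 and Mmp23 lie close together in all groups.

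The largest increases were those of a collagenase and 2 stromelysins, Mmp13, Mmp10 and Mmp3, whose genes share a cluster on chromosome 9. Their promoter windows, 250 bases before to 50 bases after the annotated start, are shown because a single motif lies near the start in all 3 of them. The sequences are from RefSeq (GRCm38.p6), 5′ to 3′ on the + strand, at chr9:7272264-7272563 for Mmp13, chr9:7502092-7502391 for Mmp10 and chr9:7445572-7445871 for Mmp3. Capitals mark matches to AP-1 (TGANTCA), RUNX (AACCACA) and ETS (AGGAAG), searched on both strands.
Mmp13: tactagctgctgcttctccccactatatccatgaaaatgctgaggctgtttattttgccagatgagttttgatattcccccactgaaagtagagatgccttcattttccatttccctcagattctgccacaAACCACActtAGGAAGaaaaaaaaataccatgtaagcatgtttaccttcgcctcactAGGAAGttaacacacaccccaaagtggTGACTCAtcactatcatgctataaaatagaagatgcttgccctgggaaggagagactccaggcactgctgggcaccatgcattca
Mmp10: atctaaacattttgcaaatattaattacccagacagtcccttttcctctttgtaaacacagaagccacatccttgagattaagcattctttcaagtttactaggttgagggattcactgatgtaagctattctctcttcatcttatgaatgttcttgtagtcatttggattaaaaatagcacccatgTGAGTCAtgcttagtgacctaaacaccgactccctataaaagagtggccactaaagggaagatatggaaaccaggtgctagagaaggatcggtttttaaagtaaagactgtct
Mmp3: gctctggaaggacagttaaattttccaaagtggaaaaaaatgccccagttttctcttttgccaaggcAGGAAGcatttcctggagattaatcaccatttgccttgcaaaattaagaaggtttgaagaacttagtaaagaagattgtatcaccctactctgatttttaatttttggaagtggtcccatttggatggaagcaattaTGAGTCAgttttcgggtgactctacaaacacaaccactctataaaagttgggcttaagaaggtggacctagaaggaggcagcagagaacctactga
The AP-1 letters began at base -35 of Mmp13, -63 of Mmp10 and -46 of Mmp3, counted from the start. Windows were held for 6 of the 10 genes (Mmp3, Mmp10, Mmp11, Mmp13, Mmp14 and Mmp23), and 3 of the 6 had the AP-1 letters, which 7.81% of all 32851 mouse promoter windows contain. The RUNX letters were in the window of Mmp13 at base -119, and in 5.27% of all windows. ETS letters were in the windows of Mmp13 at -109 and -62, of Mmp3 at -183 and of Mmp14 at -209, and in 35.4% of all windows. The TEAD letters GGAATG, searched because TEAD factors are the DNA-binding partners of Yap and Taz, were in 0 of the 6 genes' windows and in 14.7% of all windows. A match describes the letters of the window and does not show that a factor binds there.

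Mmp13, the main interstitial collagenase of rodents, had normalised counts of 531, 481 and 515 in the 3 DMSO libraries and of 7333, 7388 and 6949 in the 3 blebbistatin libraries. In the Y27632 table the DMSO libraries had 552, 499 and 535 and the Y27632 libraries 3422, 3130.3 and 3286. Every treated library was far above every DMSO library under both inhibitors. The log2 change was 3.83 with blebbistatin (standard error 0.045, limma adjusted p 9.37e-14) and 2.63 with Y27632 (standard error 0.049, limma adjusted p 2.76e-12). Mmp13 had the change ranked 2 from the highest of all genes tested with blebbistatin and 5 with Y27632. Compared directly by edgeR, blebbistatin libraries were 2.31-fold above Y27632 libraries (log2 difference 1.21, adjusted p 1.97e-11).

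Mmp10, a stromelysin that activates other metalloproteinase precursors, had 165, 140.1 and 194 normalised counts in the DMSO libraries and 2271, 2004 and 1909 in the blebbistatin libraries. With Y27632 it went from 171, 145 and 202 to 813, 692 and 728. All treated libraries were above all DMSO libraries, and the Y27632 libraries stood between. The log2 changes were 3.63 with blebbistatin (standard error 0.103, limma adjusted p 5.31e-11) and 2.11 with Y27632 (standard error 0.106, limma adjusted p 1.17e-08), at ranks 6 and 17 from the highest. The direct log2 difference of 1.53 (edgeR adjusted p 1.87e-09) was the largest among the 10 genes.

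Mmp3, the stromelysin that cuts proteoglycans, fibronectin and other glycoproteins, had 6077, 6119 and 6415 normalised counts in DMSO and 23369, 22369.9 and 19809.8 with blebbistatin. In the Y27632 table it had 6318, 6352 and 6666 in DMSO and 14043, 12000.4 and 12537 with Y27632. The groups did not overlap in either table. The log2 changes were 1.81 (standard error 0.051, limma adjusted p 5.27e-11) and 0.99 (standard error 0.048, limma adjusted p 9.15e-09), and the direct difference was 0.83 (edgeR adjusted p 4.80e-08). How reads shared between the similar sequences of Mmp3 and Mmp10 were assigned is not stated in the sources used here.

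The cluster on chromosome 9 holds 10 metalloproteinase genes within 427.1 kb of the reference annotation, in the order Mmp13, Mmp12, Mmp1b, Mmp3, Mmp1a, Mmp10, Mmp8, Mmp27, Mmp20 and Mmp7. Of these, 6 had enough reads to be tested, and all 6 were called higher with each inhibitor. Over all genes tested, 26.1% were called higher with blebbistatin and 18.1% with Y27632. The genes and lists were chosen with earlier results of these data known, so this count is no test of the cluster. Mmp12, the macrophage elastase, rose from 3567 ± 123 to 5219 ± 360.2 normalised counts with blebbistatin and from 3706 ± 129.996 to 5592 ± 598 with Y27632 (SD, n = 3). Its log2 changes were 0.55 and 0.59 (limma adjusted p 1.06e-06 and 6.95e-06), and the direct difference of -0.03 was not called (edgeR adjusted p 0.688), whereas those of its neighbours Mmp13 and Mmp3 were. Mmp27 and Mmp8, a collagenase best known from neutrophils, lie side by side and had low counts. Mmp27 rose from 18.3 ± 4.70 to 97.7 ± 10.6 with blebbistatin and from 19.0 ± 4.87 to 31.8 ± 4.36 with Y27632 (SD, n = 3). Mmp8 rose from 28.6 ± 1.85 to 46.1 ± 8.79 and from 29.8 ± 1.94 to 46.0 ± 8.99 (SD, n = 3). The limma adjusted p for Y27632 was 0.0357 for Mmp27 and 0.0373 for Mmp8, and DESeq2 on the same reads gave 0.112 and 0.0971. For Mmp8 with blebbistatin the limma adjusted p was 0.0160 and that of DESeq2 0.0565. Leaving out 1 library ended the Mmp8 call with blebbistatin (without blebbistatin replicate 1, limma adjusted p 0.0776). The Y27632 calls ended without each library but DMSO replicate 2 for Mmp27 (limma adjusted p 0.0631 to 0.132) and without each but Y27632 replicate 3 for Mmp8 (0.0537 to 0.139).

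**Figure D2:**
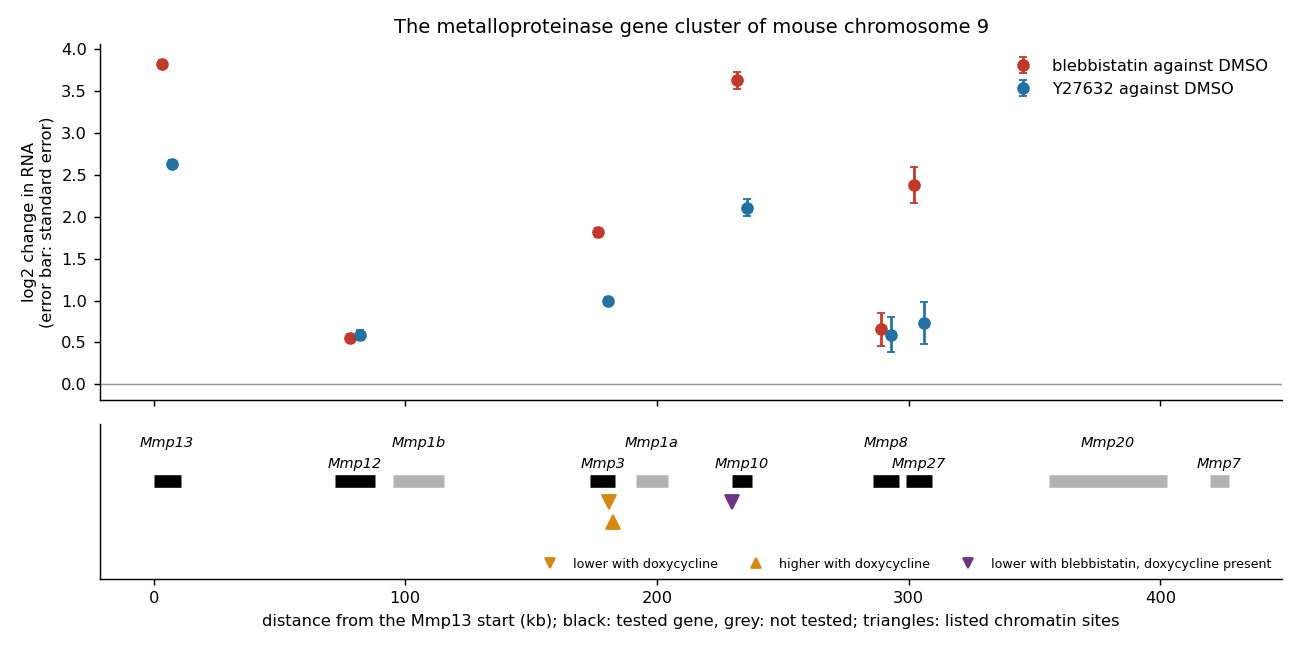
The metalloproteinase cluster of chromosome 9, with distance from the Mmp13 start in kb on the horizontal axis. The upper panel gives the log2 change of each tested gene under the 2 inhibitors, with standard errors and the points of a gene drawn 4 kb apart for legibility, and the lower panel gives the genes and the listed chromatin sites. All 6 tested genes lie above 0, and the 3 sites drawn fall at Mmp3 and just before Mmp10.

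Macrophage marker genes were also mostly higher under each inhibitor. Their summed level was 5999 to 6617 normalised counts in DMSO and 8593 to 9673 with blebbistatin, and 6228 to 6879 in DMSO and 9065 to 10345 with Y27632. Of the 8 markers, 6 rose with blebbistatin and 8 with Y27632, beside 26.1% and 18.1% of all genes tested. Their median log2 changes were 0.49 and 0.60. Between the inhibitors 0 of 8 differed, beside 53.1% of all genes tested. In bulk samples, more or fewer cells of a type and more or less RNA per cell cannot be told apart. The part of these cells in the values of Mmp12, Mmp8 and Mmp9, which leukocytes are known to make, was not tested.

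Mmp14 and the gelatinase whose precursor it activates, Mmp2, rose by less. Mmp14, the membrane-type metalloproteinase that cuts collagen at the cell surface, had 22672, 22747 and 21900.2 normalised counts in DMSO and 50701, 52132 and 49969.6 with blebbistatin. With Y27632 it went from 23569.6, 23614 and 22759 to 28521, 28504 and 29994. The treated libraries were above the DMSO libraries in both tables, and those of blebbistatin had more than those of Y27632. The log2 changes were 1.18 (standard error 0.031, limma adjusted p 3.09e-11) and 0.31 (standard error 0.032, limma adjusted p 7.34e-06). The direct difference was 0.88 (edgeR adjusted p 2.47e-11).

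Mmp2, the gelatinase of fibroblasts, had 17022, 16847 and 17049 normalised counts in DMSO and 32227, 32209 and 31764 with blebbistatin. In the Y27632 table it had 17696, 17489 and 17717 in DMSO and 23829, 22444 and 23167 with Y27632. The groups did not overlap, and the log2 changes were 0.92 (standard error 0.027, limma adjusted p 7.83e-11) and 0.39 (standard error 0.030, limma adjusted p 6.20e-07). Mmp2 was 1.45-fold higher with blebbistatin than with Y27632 (edgeR adjusted p 1.81e-09). The long non-coding gene Gm45472 overlaps the Mmp2 gene over 612 bp.

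Mmp16, another membrane-type enzyme, had 544.5 to 566 normalised counts in DMSO and 556 to 634 with blebbistatin, and the groups overlapped. In the Y27632 table it had 566 to 588 in DMSO and 609 to 639 with Y27632. The log2 changes of 0.07 (standard error 0.064, limma adjusted p 0.369) and 0.12 (standard error 0.052, limma adjusted p 0.0959) did not pass the test. Their 95% intervals ran from -0.07 to 0.21 and from 0.0055 to 0.23. The Mmp16 gene overlaps the pseudogene Gm11860 over 1260 bp.

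Mmp11 was raised by blebbistatin with little change under Y27632. This stromelysin, which is activated inside the cell by furin, had 2062, 2119 and 1983 normalised counts in DMSO and 4955, 5131 and 5481 with blebbistatin. With Y27632 it had 2144, 2199.9 and 2060.5 in DMSO and 2252, 2308 and 2324 after treatment. The blebbistatin libraries were all more than 2-fold above the DMSO libraries, whereas the Y27632 libraries were just above the DMSO libraries of their table. The log2 change was 1.34 with blebbistatin (standard error 0.043, limma adjusted p 1.39e-10) and 0.10 with Y27632 (standard error 0.037, limma adjusted p 0.0417). The direct difference of 1.25 was called (edgeR adjusted p 1.51e-11). The small change under Y27632 was not called by edgeR (adjusted p 0.0532), by DESeq2 (adjusted p 0.116) or in the authors' deposited table (adjusted p 0.113). Its limma adjusted p was 0.0528 to 0.141 without any 1 of the libraries other than DMSO replicate 2.

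Mmp19 moved in opposite directions under the 2 inhibitors. Its product is a secreted enzyme that cuts basement membrane proteins. The DMSO libraries had 1299.7, 1389.9 and 1560.0 normalised counts in the blebbistatin table, and the blebbistatin libraries 1738, 1643 and 1605. In the Y27632 table the DMSO libraries had 1351, 1443 and 1621 and the Y27632 libraries 1226, 1095 and 1135. All blebbistatin libraries were above, and all Y27632 libraries below, the DMSO libraries of their table. The log2 changes were 0.23 (standard error 0.061, limma adjusted p 0.00638) and -0.35 (standard error 0.063, limma adjusted p 0.000821), and the direct difference was 0.59 (edgeR adjusted p 2.11e-06). Mmp19 overlaps the coding gene Tmem198b over 2739 bp, and whether counting used strand is not stated, so reads of the 2 genes may be mixed. Tmem198b itself changed by -0.23 with blebbistatin and -0.22 with Y27632 (limma adjusted p 0.00141 and 0.00297).

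Mmp9, the gelatinase of leukocytes and osteoclasts, rose a little under each inhibitor. It had 1935, 1999.98 and 1762 normalised counts in DMSO and 2173, 2268 and 2063 with blebbistatin. In the Y27632 table it had 2012, 2076 and 1831 in DMSO and 2210.0, 2208 and 2269 with Y27632. The treated libraries were above the DMSO libraries by a small margin. The log2 changes were 0.19 (standard error 0.052, limma adjusted p 0.00783) and 0.18 (standard error 0.045, limma adjusted p 0.00826), and the direct difference of 0.03 was not called (edgeR adjusted p 0.636). These changes are smaller than the median changes of the macrophage markers given above, and whether macrophages contributed to them was not tested.

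Mmp23, a membrane-anchored member without the hemopexin domain of its relatives, had 2676 to 2769 normalised counts in DMSO and 2524 to 2685 with blebbistatin, and the groups overlapped by 1 library. The Y27632 libraries, at 2584 to 2675, were all below the DMSO libraries of their table, at 2782 to 2877. The log2 change of -0.08 with blebbistatin was not called (standard error 0.037, limma adjusted p 0.0939), and that of -0.11 with Y27632 was (standard error 0.033, limma adjusted p 0.01998). In the authors' deposited table the adjusted p for Y27632 was 0.0553. Leaving out DMSO replicate 2 or 3 or Y27632 replicate 1 or 2 raised the limma adjusted p to between 0.0550 and 0.0690, and leaving out blebbistatin replicate 2 brought that for blebbistatin to 0.0347. Mmp23 shares 72 bp with the gene Mib2, which changed by 0.18 and 0.22.

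**Figure D3:**
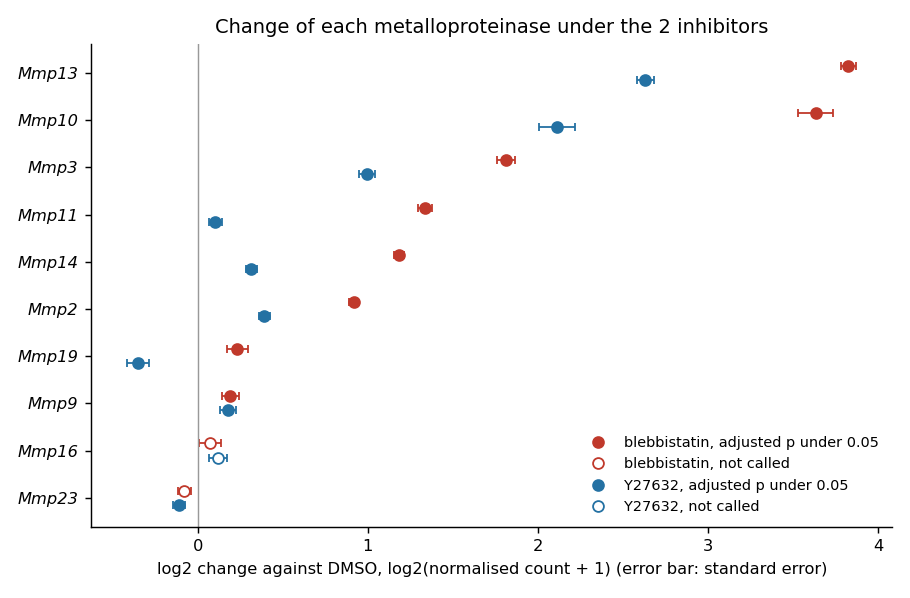
Log2 change against DMSO of each metalloproteinase on the log2(normalised count + 1) scale, with standard errors, for blebbistatin and Y27632. Filled points had a limma adjusted p under 0.05 and open points did not. The blebbistatin point lies to the right of the Y27632 point for Mmp13, Mmp10, Mmp3, Mmp11, Mmp14 and Mmp2, and the 2 points of Mmp19 fall on either side of 0.

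The inhibitors were compared directly by edgeR on the whole reads of the 9 libraries. Of the 10 genes 7 were higher with blebbistatin and 0 lower, where 53.1% of 14925 genes differed, 26.9% higher and 26.2% lower with blebbistatin. By at least 1, 3 of the 10 were higher, as were 3.35% of all genes. The 7 were Mmp2, Mmp3, Mmp10, Mmp11, Mmp13, Mmp14 and Mmp19, and the median log2 difference of the 10 genes was 0.71, beside 0.0052 over all genes. Mmp9, Mmp16 and Mmp23 did not pass, with differences of 0.03, -0.03 and 0.05. Each inhibitor was given at a single dose, 10 µM for blebbistatin and 30 µM for Y27632, so the comparison is of these doses. Both comparisons with DMSO share the same 3 DMSO libraries.

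Over the 9 RNA libraries, the genes whose level followed Mmp13 most closely were Adam12 (Pearson r 0.997), a membrane-bound metalloprotease of another family, Gusb (0.996), Gdf10 (0.996), Grem1 (0.996), a secreted BMP antagonist, and Clec14a (0.996). Those closest to Mmp14 were Cmtm3 (0.9996), Nov (0.998), Gem (0.998), Shc2 (0.998) and Renbp (0.998). Grem1 had log2 differences from DMSO of 2.18 with blebbistatin and 1.45 with Y27632, and Gem 2.66 and 0.75. The 9 libraries form 3 groups, so these coefficients mostly describe the order and spacing of 3 group means, and they carry no test.

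Outside the 10 genes, 7 of the 13 other family members had enough reads to be tested. With each inhibitor 3 of the 7 rose, 0 fell and 4 were not called, and the 3 were Mmp8, Mmp12 and Mmp27 of the chromosome 9 cluster. Counts of this list and of those below stand beside the shares of all genes tested. These were 26.1% higher and 26.9% lower with blebbistatin, and 18.1% higher and 17.8% lower with Y27632. The median log2 change of the 7 was 0.44 with blebbistatin and 0.22 with Y27632. Mmp25 and Mmp28 were not called against DMSO, with log2 changes of 0.44 and 0.27 for blebbistatin and -0.49 and -0.37 for Y27632. Directly compared by edgeR, 3 of the 7 were higher with blebbistatin than with Y27632 and 1 lower, beside 26.9% and 26.2% of all genes tested. The 3 were Mmp27, Mmp25 and Mmp28, with log2 differences of 1.67, 0.85 and 0.65 (edgeR adjusted p at most 0.0178). Mmp25 had low counts, with means of 34.7 with blebbistatin and 19.6 with Y27632 in their separately normalised tables. Mmp17 was the lower gene, at -0.23 (edgeR adjusted p 0.00980).

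The inhibitors of the enzymes did not move as 1 group. With blebbistatin 2 of 6 tested rose and 3 fell, and 1 of the 2 was Timp4, which was near 0 in DMSO. With Y27632, where Timp4 was too low to be tested, 1 of 5 rose and 3 fell. Timp3, the matrix-bound inhibitor, fell from 11585 ± 171 to 4587 ± 62.2 normalised counts with blebbistatin and from 12036 ± 186 to 10076 ± 209 with Y27632 (SD, n = 3). Its log2 changes were -1.34 and -0.26, and the inhibitors differed by -1.07 in the direct comparison. Timp1 changed by -0.31 with each drug and Timp2, which takes part in Mmp2 activation by Mmp14, by 0.24 and 0.29, all called by limma. Reck, a membrane-anchored inhibitor, changed by -0.31 and -0.11, with a limma adjusted p of 0.0267 for Y27632 that rose to between 0.0549 and 0.0950 without DMSO replicate 1 or 2 or Y27632 replicate 1 or 2. Timp4 had 0 to 3.45 normalised counts in DMSO and 21.8 to 34.0 with blebbistatin, too few in DMSO for a fold change. The median log2 change of the list was -0.11 with each drug, over 6 genes with blebbistatin and 5, without Timp4, with Y27632.

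Among the genes that activate metalloproteinases or clear cut collagen, 3 of 13 tested rose and 6 fell with blebbistatin, and 5 rose and 2 fell with Y27632. Plau, the urokinase that generates plasmin, rose by 0.57 and 0.74 on the log2 scale (limma standard errors 0.042 and 0.063). Ctsk, the collagen-cutting cathepsin K, rose from 4970.4 ± 24.6 to 12120.0 ± 180.0 normalised counts with blebbistatin and from 5164 ± 27.9 to 6872 ± 159 with Y27632 (SD, n = 3), log2 changes of 1.29 and 0.41. Mrc2, a receptor that takes up collagen fragments, rose by 0.46 and 0.18. The proprotein convertases Furin and Pcsk6 changed by -0.19 and -0.53 with blebbistatin, both called, and by -0.03 and -0.09 with Y27632, neither called. The median of the list was -0.13 with blebbistatin and -0.07 with Y27632.

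Of the matrix proteins that the enzymes cut, 3 of 15 tested rose and 9 fell with blebbistatin, and 3 rose and 4 fell with Y27632. The type I collagen gene Col1a1 changed by -0.25 with blebbistatin (limma adjusted p 0.00115) and by -0.10 with Y27632, which was not called (adjusted p 0.0939). Col5a2 fell by 0.48 and 0.19 on the log2 scale, and Dcn, the proteoglycan decorin, rose by 0.28 and 0.31. Col4a1, of basement membrane collagen, rose by 0.71 and 0.21. These changes were smaller than those of Mmp13, Mmp10 and Mmp3, and the medians of the list were -0.15 and 0.03.

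Transcription factors known to act at metalloproteinase promoters moved in the other order between the drugs. With Y27632 14 of 20 rose and 0 fell, with a median log2 change of 0.43, and with blebbistatin 9 rose and 4 fell, with a median of 0.20. In the direct comparison 12 were lower with blebbistatin than with Y27632 and 5 higher, beside 26.2% and 26.9% of all genes tested. The AP-1 subunit Fos rose from 107 ± 9.50 to 146 ± 13.4 normalised counts with blebbistatin and from 112 ± 9.95 to 364 ± 38.7 with Y27632 (SD, n = 3), log2 changes of 0.44 and 1.70. Junb, also of AP-1, rose by 0.50 and 1.65, and Jun by 0.69 and 1.19. Fosl1 changed by 0.12 with blebbistatin, which was not called, and rose by 1.21 with Y27632. Directly compared by edgeR, blebbistatin libraries differed from Y27632 libraries by -1.25 for Fos, -1.13 for Junb and -0.49 for Jun (adjusted p at most 4.18e-05), while Mmp13, Mmp10 and Mmp3 differed in the opposite direction.

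Other factors of the list followed other patterns. Fosl2 fell by 0.93 on the log2 scale with blebbistatin and rose by 0.23 with Y27632, and Cebpd, a C/EBP factor, fell by 1.26 and rose by 0.42. Ets2 rose by 0.998 and 0.71. Runx1 and Cebpb were not called with blebbistatin, at -0.04 and 0.23, and rose by 0.43 and 1.26 with Y27632.

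**Figure D4:**
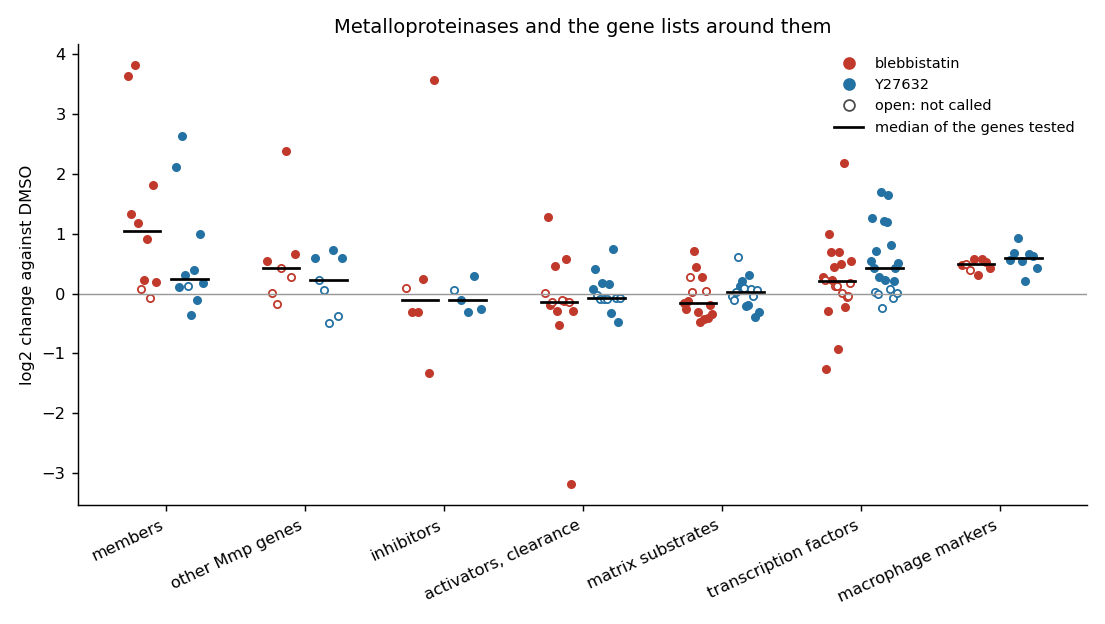
Log2 change against DMSO of every tested gene of each list, 1 point per gene, for blebbistatin and Y27632, with open points for genes not called and a black line at the median of the genes tested. The 10 metalloproteinases have medians of 1.05 and 0.25, while the transcription factors have the higher median with Y27632 (0.43 against 0.20) and the macrophage markers lie at 0.49 and 0.60.

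The chromatin site lists held few sites at these genes. All values of sites are the authors', as log2 group means without values per library, so no test was computed here, and the 5 lists hold only sites that passed the authors' thresholds. The ATAC lists of blebbistatin (970 sites) and Y27632 (207 sites) and the list of blebbistatin without doxycycline (1231 sites) had 0 sites annotated to any of the 10 genes. No site of these 3 lists lay within 100 kb of any of the genes, and the nearest was 163.9 kb from Mmp9. Of the 14087 genes that passed the filter in the blebbistatin table and had a position, 9.63%, 2.56% and 12.1% had a site of these lists within 100 kb, so 0 of 10 genes is close to that background. Mmp13 was 841.3 kb and Mmp14 1791.5 kb from the nearest site of the ATAC blebbistatin list.

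In the list of blebbistatin given with doxycycline, 99.78% of 6346 sites were lower with blebbistatin. Of its 4 sites annotated to these genes, 1 lay at the Mmp10 promoter, at chr9:7502156-7502355, with its centre 86 bp before the start. Its log2 mean was 4.29 with both drugs and 5.66 with doxycycline alone, a log2 fold of -1.37 at an FDR of 0.000555. The site covers bases -186 to 14 of the Mmp10 window printed above, including its AP-1 letters, and it was 1 of 113 promoter sites in the list. It was lower with blebbistatin, whereas Mmp10 RNA was higher with blebbistatin in the RNA libraries, which had no doxycycline. The other 3 were intergenic sites assigned to Mmp16, at chr4:17163593-17163901, chr4:17232903-17233202 and chr4:17649405-17649724, with log2 folds of -1.06, -1.05 and -1.0. They lie 203328 to 689146 bp from the Mmp16 start, so the assignment rests on distance alone. By coordinates alone, 2 of the 10 genes had a site of this list within 100 kb, beside 45.6% of the 14087 genes. The 2 were Mmp10 and Mmp3, and for both it was the Mmp10 promoter site, which lies 46.2 kb from Mmp3.

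In the list of doxycycline without blebbistatin, where only 4.15% of 7613 sites were lower, both sites annotated to these genes were lower. One lies in intron 8 of Mmp3, at chr9:7453353-7453619, with log2 means of 4.53 with doxycycline and 5.70 without, a log2 fold of -1.16 at an FDR of 0.00149. The other lies in intron 5 of Mmp2, at chr8:92835197-92835525, with means of 5.51 and 6.68, a log2 fold of -1.16 at an FDR of 2.32e-05. A neighbouring site in intron 9 of Mmp3, at chr9:7454961-7455094, which the authors' annotation assigns to Mmp1a, went the other way with a log2 fold of 1.3. The reference column of this list carries the header of blebbistatin-treated cells that had no doxycycline, while the labels assign the group with neither drug, so the reference of these folds is uncertain. By coordinates alone, 8 of the 10 genes had a site of this list within 100 kb, as did 66.8% of the 14087 genes, so this share is near the background. These were 15 sites, 13 of them higher with doxycycline, including all 6 near Mmp9, and 2 lower, the annotated sites in Mmp3 and Mmp2. None of the 6 annotated sites of the 2 lists overlapped a site of another list by 1 bp or more, where 29.9% of all sites of the list of doxycycline alone and 37.1% of those of blebbistatin with doxycycline did.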

How the data were processed

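The RNA values are a normalised signal, deposited by the authors as read counts divided by a size factor, and all values above 0 were whole multiples of 1 step, within a tolerance of 0.02 reads. Per the submitters' processing notes, HISAT2, featureCounts and DESeq2 are named, and Bowtie2, MACS2, DiffBind and HOMER, with build mm10; versions and strand use are not given in the sources used here. The authors' deposited log2 fold changes and p-values, and the deposited log2 site means and folds, p-values and FDR and other values such as the distance to a gene start (per the file headers), were used as given, and site values are the authors'. Columns of per-sample values with no matching label numbered 0.

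The tests against DMSO used limma-trend (limma 3.58.1, R 4.3.3) and log2(normalised count + 1) for genes with a mean of at least 10, a scale that understates changes of low genes, and adjusted over all genes (Benjamini-Hochberg, called under 0.05). The inhibitors were compared with the quasi-likelihood test of edgeR 4.0.16 after TMM scaling, on the whole reads of the 9 libraries. The scripts were tested on simulated data. Alternatives were other pseudocounts, filters and scalings, edgeR, DESeq2 1.42.0, a replicate block and leaving out each library. Counts over pairs of replicate libraries differed beyond sampling noise (chi-square per gene 2.63 to 8.06), so each counted as 1 sample. The genes and lists were chosen with earlier results of these data known. Named are the 10 genes, the genes of the lists, the 5 genes most correlated with Mmp13 and with Mmp14, and every site annotated to a member; not every list gene is reported here. Genes overlapping a member were added after the data were seen, as was the count of sites within 100 kb by coordinates. Between DMSO libraries the reads were identical in both tables, with 0 differing of 35972 shared genes.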

Additional observations from a re-analysis of the deposited data

Results flagged for a closer look

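Mmp19 was picked out because its change differed between the inhibitors in direction: it was 0.23 with blebbistatin and -0.35 with Y27632 on the log2 scale, and the direct difference was 0.59 (edgeR adjusted p 2.11e-06), with no overlap between the groups in either table. The transcription factors Fosl2 and Cebpd also went in opposite directions, lower with blebbistatin and higher with Y27632. Their direct log2 differences were -1.15 for Fosl2 (edgeR adjusted p 6.31e-12) and -1.62 for Cebpd (edgeR adjusted p 3.71e-07).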

How the results depend on the processing

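The limits are 3 libraries per group, counting rules that are not stated, and site lists without values per library. Of 220 alternatives to the tests of the 10 genes that kept all libraries, 216 left the call and direction as reported and 4 ended a call, all of Mmp11 with Y27632. Of 210 fits without 1 library, 199 left them, 9 ended a call (Mmp11 or Mmp23 with Y27632), 1 made a call (Mmp23 with blebbistatin) and 1 turned the sign of a difference that was not called, that of Mmp9 between the inhibitors (-0.013 without blebbistatin replicate 2, to 0.056 without blebbistatin replicate 3). The number of genes called of the 10 ranged from 8 to 9 with blebbistatin, from 7 to 8 with Y27632 (9 with all libraries) and stayed at 7 between the inhibitors when each library was left out. Sites annotated to these genes in the list of blebbistatin with doxycycline numbered 1 instead of 4 when sites over 100 kb from the start were left out, by construction. An FDR of at most 0.01 left the counts of sites as they were. Replicate numbers did not pair the libraries (correlations of deviations between same-numbered libraries from -0.165 to 0.127), and with a replicate block 8 of the 10 genes were called with blebbistatin, 8 with Y27632 and 7 between the inhibitors, and 7604, 4633 and 7699 over all genes.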
